A study of Mus musculus with 6 samples.

Results

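The imprinted Dlk1-Meg3 locus of mouse chromosome 12 is represented here by 7 genes, Begain, Dlk1, Meg3, Rtl1, Rian, Mirg and Dio3, which were taken by name from the 20040 gene entries of the deposited expression table. The set was chosen by the measured TPM of these genes in the 3 knockout against the 3 wild-type libraries, so that difference is described below, no p-value is given for it, and the calls of the fit over all entries are given as counts only. The 6 libraries are mRNA libraries from C57BL/6 cortical neurons that were isolated on embryonic day 18 and kept in culture. In 3 of them the embryos were wild type (WT) and in the other 3 they carried a knockout of KDM6B (KO), the demethylase that removes methyl groups from lysine 27 of histone H3. The sources used here do not give the part of the gene that was deleted, any Cre driver, the number of embryos per library or the days in culture. Nothing in the labels says that the 3 replicates of a genotype came from separate cultures, so a p-value below measures the spread between the libraries at hand alone, and that spread may be technical.

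The locus carries an imprinted domain, in which most genes are read from 1 parental copy only. Dlk1, Rtl1 and Dio3 encode proteins and are expressed mainly from the paternal copy. Meg3, Rian and Mirg are noncoding RNAs of the maternal copy and lie one after the other on the same strand, with clusters of small nucleolar RNAs (snoRNAs) and microRNAs (miRNAs) within and between them. In the nervous system the domain is known for the large set of neuronal miRNAs it yields, and for Dlk1, a transmembrane relative of the Notch ligands that is studied in neural stem cells. Begain, a neighbour outside the core of the domain, encodes a protein that binds PSD-95 at the postsynaptic density.

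The sequences of the locus show how closely its sense and antisense transcripts are tied. Rtl1 is a single coding exon derived from a retrotransposon, and several miRNAs are read from the maternal strand exactly opposite to it. The 3′ arms of 5 of these miRNAs are printed because each is an exact complement of the Rtl1 transcript. Capitals mark the seed, bases 2 to 8, through which a miRNA pairs with most targets. Sequences are the RefSeq entries for GRCm38, 5′ to 3′.
mmu-miR-431-3p: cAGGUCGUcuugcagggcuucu
mmu-miR-433-3p: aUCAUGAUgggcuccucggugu
mmu-miR-127-3p: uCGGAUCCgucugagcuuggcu
mmu-miR-434-3p: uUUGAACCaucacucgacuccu
mmu-miR-136-3p: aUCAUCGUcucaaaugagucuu
The 3′ arms of 3 further miRNAs between Rian and Mirg are printed because, of the entries there with counts in WT and none in KO, theirs had the most counts (4 to 8).
mmu-miR-300-3p: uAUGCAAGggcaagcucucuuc
mmu-miR-411-3p: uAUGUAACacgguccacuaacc
mmu-miR-667-3p: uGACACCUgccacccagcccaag
No 2 of these 8 arms share a seed. Over the whole locus, 54 table entries had mature sequences in RefSeq, and the 112 mature arms held 102 distinct seeds. Seeds shared by 2 or more arms numbered 10, for example AUGUAAC, which miR-411-3p shares with miR-379-3p.

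The promoter of Meg3 is printed because Meg3 has the most counts of the set and is the first of the maternal RNAs. The stretch lies on the plus strand of GRCm38, chr12:109540746-109540995, and ends just before the first base of the RefSeq transcript. Capitals mark the cAMP response element TGACGTCA.
Meg3 promoter: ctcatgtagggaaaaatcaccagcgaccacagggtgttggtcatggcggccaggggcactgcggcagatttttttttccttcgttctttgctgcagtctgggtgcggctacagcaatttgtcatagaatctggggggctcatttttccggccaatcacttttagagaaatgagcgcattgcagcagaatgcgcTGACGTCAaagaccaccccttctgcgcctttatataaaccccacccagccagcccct
Promoter windows of 300 bases, 250 before and 50 after a start, were on hand for 6 of the 7 genes. TGACGTCA, searched on both strands, stood in a window of Meg3 and of no other gene of the set, against 1.79% of all 32851 promoter windows. The TATA box letters TATAAA, also searched on both strands, stood in windows of Meg3 and Dio3, against 13.6% of all windows. A match describes the letters only.

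Depth was alike in the 6 libraries. Levels are in TPM, which scale reads by gene length and to 1000000 per library, and the whole counts recovered behind them added up to 20161130 to 23980087 per library. Kdm6b, the targeted gene, stood at 30.9, 30.3 and 30.7 TPM in WT, against 11.2, 11.1 and 12 TPM in KO, with no overlap and with 37.3% of the WT mean left in KO. The groups also differed in sex-linked RNA. On the Y chromosome, Uty, Kdm5d, Ddx3y and Eif2s3y had KO means between 0.361% and 0.548% of WT, and the X-linked Xist stood at 313% of WT, so the sex mix and the genotype cannot be told apart in any comparison below.

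Dlk1 (chr12:109452823-109463336, plus strand, GRCm38) showed the widest gap of the set. Its level was 6.12, 5.14 and 6.4 TPM in the 3 WT libraries and 1.91, 2.16 and 1.57 TPM in the 3 KO libraries. Every KO library was below every WT library, and the groups were far apart beside the spread within each. The mean was 5.89 ± 0.659 TPM (SD, n = 3) in WT and 1.88 ± 0.293 TPM (SD, n = 3) in KO, that is 31.9% of WT. On the log2 scale of TPM plus 0.5, KO minus WT was -1.43 ± 0.14 (SE). The values rest on 210, 171 and 231 counts in WT and on 66, 82 and 50 counts in KO. In RNA from whole cultures, fewer cells that express a gene and less RNA per cell cannot be told apart.

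Rtl1 (chr12:109589193-109600330, minus strand) was close to absent from these libraries. It had 2, 1 and 1 counts in WT and 3, 0 and 2 counts in KO, 9 in all, which is 0.0536, 0.0276 and 0.0255 TPM against 0.0799, 0 and 0.0578 TPM. The groups overlapped, and the gene was below the minimum mean of 0.5 TPM needed to be tested. For this gene 3 counts correspond to 0.0764 to 0.0867 TPM in the libraries where it was above 0, so no difference was detectable at this depth. The length behind the table values, 5235 nt, is near the 5232 nt of the coding segment in the annotation (chr12:109590172-109595403). In that same segment lie 7 entries of the opposite strand, the RNA 6430411K18Rik and 6 miRNA precursors. They held 425 counts together, 290 of them in 6430411K18Rik and 135 in the miRNA entries, so most counts over this exon stood in entries of the opposite strand. The sources used here do not say whether the counting used strand.

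Dio3 (chr12:110279068-110281097, plus strand), the deiodinase that inactivates thyroid hormone, lies at the far end of the domain. Its level was 1.05, 0.387 and 0.428 TPM in WT against 0.523, 0.745 and 0.729 TPM in KO. All 3 KO libraries lay between the lowest and the highest WT library. The means were 0.622 ± 0.372 TPM (SD, n = 3) and 0.665 ± 0.124 TPM (SD, n = 3), on 25 and 27 counts per group, and the log2 difference was 0.10 ± 0.28 (SE). WT replicate 1 alone held 14 of the 25 WT counts. The antisense RNA Dio3os had 1 count in 1 library of each group.

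Among the maternal RNAs, Meg3 (chr12:109541001-109571726, plus strand) was lower in KO. Its level was 378, 386 and 399 TPM in WT against 265, 303 and 299.8 TPM in KO, so the groups were apart. The mean was 388 ± 10.6 TPM (SD, n = 3) in WT and 289 ± 21.3 TPM (SD, n = 3) in KO, that is 74.6% of WT, with a log2 difference of -0.42 ± 0.05 (SE). Between 24605 and 38790 counts stood behind each library value, so counting error is small beside the spread between libraries. KO replicate 1 was the lowest of the 6.

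Rian (chr12:109603940-109661716, plus strand), which hosts a family of C/D box snoRNAs, was the most abundant member. Its level was 581, 591 and 603 TPM in WT against 549, 560.0 and 548 TPM in KO. The KO libraries lay below the WT libraries, but by little, with means of 591 ± 11.1 TPM (SD, n = 3) and 552 ± 6.8 TPM (SD, n = 3), or 93.4% of WT. The log2 difference was -0.10 ± 0.02 (SE) and -0.07 after centring each library on its median.

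Mirg (chr12:109729764-109749460, plus strand), the host of the last miRNA cluster, had 13.3, 12.5 and 13.1 TPM in WT against 9.77, 10.8 and 9.32 TPM in KO. The groups were again apart, with a mean of 13 ± 0.426 TPM (SD, n = 3) in WT and of 9.96 ± 0.764 TPM (SD, n = 3) in KO, or 76.9% of WT. Its log2 difference was -0.37 ± 0.07 (SE), on 363 counts in WT and 282 in KO.

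Begain (chr12:109032187-109068217, minus strand), the neighbour before Dlk1, differed least among the genes whose groups were apart. Its level was 64.5, 64.6 and 62.5 TPM in WT against 57.5, 59.3 and 62.4 TPM in KO. The highest KO library nearly touched the lowest WT library. The means were 63.9 ± 1.18 TPM (SD, n = 3) and 59.7 ± 2.46 TPM (SD, n = 3), or 93.5% of WT, with a log2 difference of -0.10 ± 0.04 (SE).

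**Figure D1:**
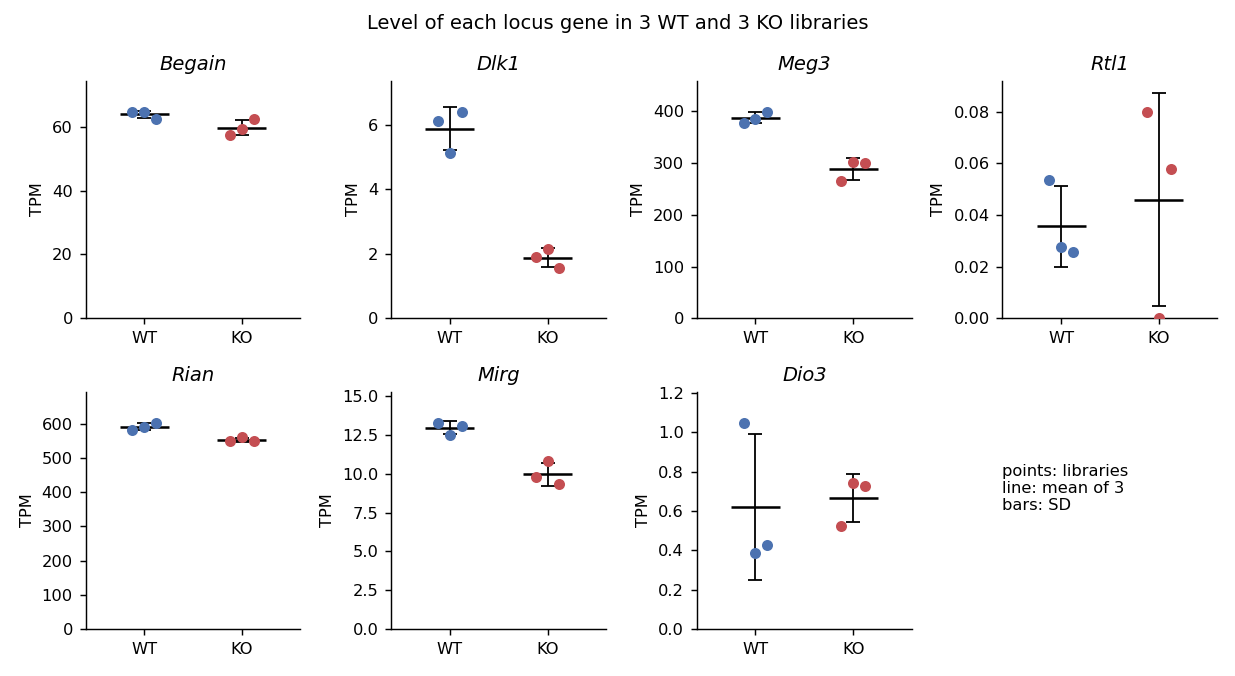
Level in TPM of each of the 7 genes (vertical axes, each from 0) in the 3 WT and the 3 KO libraries. Points are libraries, lines are means of 3 and bars are SD. The KO points of Begain, Dlk1, Meg3, Rian and Mirg lie below all WT points, while those of Rtl1 and Dio3 overlap with WT.

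Of the 7 genes, 6 had a mean of at least 0.5 TPM and entered the fit across all 14983 tested entries (limma, Benjamini-Hochberg adjusted p below 0.05). By that fit 4 were called lower in KO and 0 higher, where 6.74% of all tested entries were called lower, 4.15% higher and 10.9% in either direction. The 3 KO values lay below all 3 WT values for 5 of the 7 genes, against 19.2% of tested entries. Since the genes were chosen with this contrast known, nothing is read from these counts. Under the 15 alternatives the number called lay between 2 and 4. With any 1 library left out, the log2 difference of Rian lay between -0.11 and -0.08 and that of Mirg between -0.42 and -0.32. The number called was 2 or 3 with 1 library left out and 2 under the replicate block. It was 3 with no filter, median centring or no variance trend.

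The order of levels was the same in both genotypes. Per length, Rian stood above Meg3, followed by Begain, Mirg, Dlk1, Dio3 and Rtl1, and the libraries of neighbours in this order did not overlap in either group. The gaps between levels did shift. Rian was 1.53 times Meg3 in WT and 1.91 times in KO, and Dlk1 was 9.46 times Dio3 in WT and 2.83 times in KO.

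Ratios within a library do not depend on how that library was scaled. The ratio of Rian to Meg3 was 1.54, 1.53 and 1.51 in WT and 2.07, 1.85 and 1.83 in KO, so the KO libraries were higher in all 3 cases. Its mean was 1.53 ± 0.0132 (SD, n = 3) in WT and 1.91 ± 0.136 (SD, n = 3) in KO. The ratio of Mirg to Meg3 overlapped between the groups, at 0.0335 ± 0.00146 (SD, n = 3) in WT and 0.0345 ± 0.00306 (SD, n = 3) in KO. The KO means of Meg3 and Mirg were thus at 74.6% and 76.9% of WT and that of Rian at 93.4%. Dlk1 differed more than Meg3, with a ratio of 0.0152 ± 0.00161 (SD, n = 3) in WT and 0.00652 ± 0.00111 (SD, n = 3) in KO. Mirg to Rian was 0.0219 ± 0.00088 (SD, n = 3) in WT and 0.018 ± 0.00116 (SD, n = 3) in KO.

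**Figure D2:**
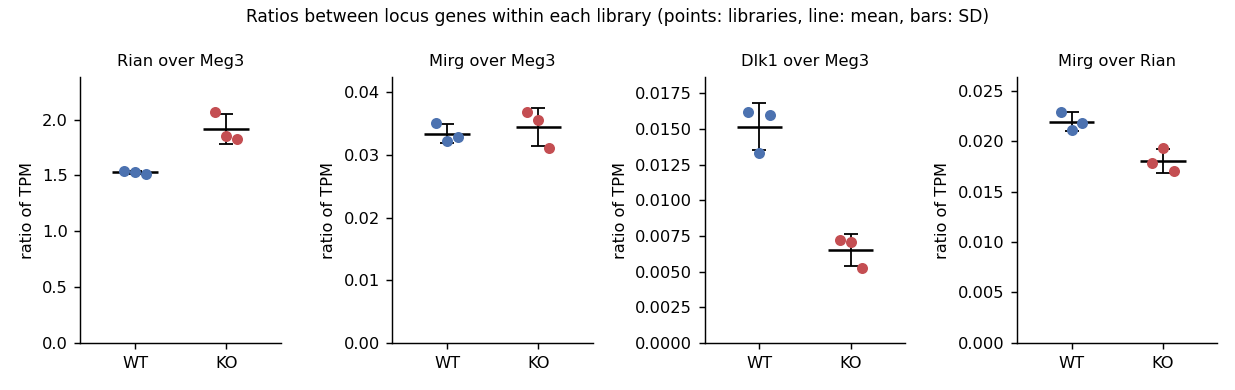
Ratio of TPM between pairs of locus genes within each library (vertical axes, each from 0) for 3 WT and 3 KO libraries. Points are libraries, lines are means and bars are SD. Rian over Meg3 is higher in every KO library than in any WT library, Dlk1 over Meg3 and Mirg over Rian are lower, and Mirg over Meg3 overlaps.

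Across the 6 libraries the levels of Dlk1, Meg3, Rian and Mirg ran together, with Pearson r of log2 values between 0.92 and 0.98. These r are descriptions over 6 points that fall into 2 groups. When each library was expressed as its deviation from its group mean, Dlk1 and Mirg still ran together (r = 0.90), Meg3 and Rian did so less (r = 0.54) and Dlk1 and Meg3 did not (r = 0.04). Begain went against Dlk1 within groups (r = -0.67). These within-group r rest on 6 deviations from 2 group means, with few counts for Dlk1 and Mirg, so they are descriptions too. Dio3 followed none of the others, with r between -0.35 and 0.13.

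Some genes elsewhere in the genome had a higher r with Dlk1 or Meg3 than the other locus genes did. These r follow the difference between the groups, which was known when the set was chosen. The highest r among 12634 genes over 6 libraries are also near 1 by selection. Nothing about shared control is read from the ranks. Among 12634 autosomal genes ranked by r over the 6 libraries, those nearest to Dlk1 were Dusp15 (r = 0.999), Fam188a (0.999), Oxct1 (0.998), Cap2 (0.998) and Mtcl1 (0.996). Mirg was at rank 90 for Dlk1, Rian at 415, Meg3 at 552 and Begain at 2849. Nearest to Meg3 were Npas2, Miat and Vit (0.996 each), Ubtf (0.995) and Mapk15 (0.994), with Rian at rank 230, Dlk1 at 330, Mirg at 498 and Begain at 1266. Miat, another long noncoding RNA of neurons, had a mean of 92.9 ± 1.93 TPM (SD, n = 3) in WT and 66 ± 5.3 TPM (SD, n = 3) in KO.

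Between the outer ends of Begain and Dio3 the table held 66 further entries, 56 miRNA precursors, 7 snoRNAs and 3 other RNAs. An mRNA library is not made to capture mature miRNAs, so reads in these short entries say how much longer RNA crosses each one and not how much mature miRNA the cells held. Most had few reads: 50 of the 66 had under 20 counts over the 6 libraries and 1 had none. Of the 32 with at least 10 counts, 29 had a lower mean in KO and 3 a higher mean. The same share over all tested entries was not taken. Some of the 32 also lie in exons of Meg3, Rian or Mirg, so nothing is read from the 29. In 5 of the 32 the 3 KO values lay below all 3 WT values, where 19.2% of all tested entries did so. Of 60 tested, 6 fell and 0 rose (10.0%, where all tested entries gave 10.9%), and 4 of the 6 rested on under 20 counts. Among the 6, Mir300, Mir411 and Mir667 reached the minimum mean through their WT values alone, and Mir1906-1 and AF357359 lie in exons of Meg3 and Rian. The count of 6 is thus given as a description. The median log2 difference of the 60 tested was -0.48, beside -0.02 over all tested entries. It was -0.28 when a group at 0 was set to a limit of 3 counts. The 16 tested entries with at least 20 counts also had a median of -0.48.

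The deepest 2 lie in exons of Meg3, whose difference was known when the set was chosen, so no p-value is given for them. Mir1906-1 (chr12:109544541-109544620) fell from 291, 288 and 303 TPM in WT to 175, 214 and 190.0 TPM in KO, or to 65.7% of WT (log2 difference -0.61 ± 0.07 SE). Its value is uncertain as to place, since a copy on the X chromosome has a row with the same values and the length behind them, 160 nt, is that of both copies together. Mir770 (chr12:109563692-109563785) had 193, 202 and 211 counts in WT and 151, 178 and 175 in KO, groups that were apart in TPM without a call (log2 difference -0.28).

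Within Rian, the snoRNA entry AF357359 (chr12:109650709-109650738) had 105, 89 and 130 counts in WT and 64, 94 and 74 in KO. In TPM, which corrects for depth, the groups were apart and KO stood at 71.2% of WT (log2 difference -0.49 ± 0.13 SE). The entry lies in an exon of Rian, whose difference was known when the set was chosen, so no p-value is given. Its call ended when any 1 library but WT replicate 2 was left out. Mir1188, also within Rian, had 13, 16 and 20 counts in WT and 9, 15 and 10 in KO, and did not pass (limma Benjamini-Hochberg adjusted p = 0.088).

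The miRNAs opposite to Rtl1, printed above, had few counts each. Mir431 (chr12:109590447-109590537) fell from 4, 5 and 7 counts in WT to 1, 0 and 1 in KO (log2 difference -2.70 ± 0.52 SE, limma Benjamini-Hochberg adjusted p = 0.016), a call that ended without WT replicate 2 or WT replicate 3 (adjusted p up to 0.057). Mir434 had 13, 7 and 12 counts in WT and 2, 9 and 5 in KO, and its groups overlapped. Mir433 overlapped as well, at 5, 5 and 8 against 2, 6 and 3 counts. Mir127 ran the other way on 6 counts in all, with 0, 0 and 1 in WT and 1, 2 and 2 in KO. Mir136 also had a higher mean in KO, at 1, 0 and 3 against 2, 2 and 2 counts, and its groups overlapped. Mir432, in the same exon but not printed above, overlapped too, at 2, 4 and 6 against 2, 8 and 2 counts. The longer RNA 6430411K18Rik, on the same strand, was at 5.31 ± 1.01 TPM (SD, n = 3) in WT and 4.84 ± 0.555 TPM (SD, n = 3) in KO (limma Benjamini-Hochberg adjusted p = 0.68).

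Between Rian and Mirg, the entries of Mir300, Mir411 and Mir667 had no count in any KO library and entered the fit through WT alone, so only their counts are given. Mir300 and Mir411 had 4 counts each over the 3 WT libraries. Set against 3 counts, taken as the limit of a group at 0, this is a ratio of 1.3 for each. Mir667 had 8, a ratio of 2.7. These ratios leave out the counting error of the WT counts, so they are not bounds and no difference is read from them. In the same stretch Mir329 had 3 counts in WT and none in KO, Mir299 had 2, and Mir379 and Mir380 had 1 each, while Mir882 had none in WT and 2 in KO.

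Within Mirg, Mir410 had 4, 7 and 6 counts in WT and 7, 9 and 8 in KO. It was 1 of the 3 entries with a higher KO mean, and it was not called. It lies in an exon of Mirg, so no p-value is given. Mir3072 had 14, 12 and 8 counts in WT and 4, 9 and 10 in KO, which overlap.

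Summed by stretch of the locus, the short entries were lower in KO throughout, though only the stretches with the most reads had groups apart. Values are summed CPM, counts scaled to 1000000 counts of the library. Within Meg3, 2 entries summed to 24.5 ± 0.484 (SD, n = 3) in WT and 17.8 ± 1.53 (SD, n = 3) in KO, or 72.8% of WT. Without Mir1906-1 the same stretch gave 9.15 ± 0.382 (SD, n = 3) and 7.66 ± 0.924 (SD, n = 3), or 83.7%. Within Rian, 10 entries summed to 7.68 ± 1.17 (SD, n = 3) and 5.57 ± 0.596 (SD, n = 3), or 72.5%. In these stretches all 3 KO libraries lay below all 3 WT libraries.

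The other stretches overlapped between the groups. The 13 entries between Meg3 and Rian summed to 2.04 ± 0.564 (SD, n = 3) in WT and 1.19 ± 0.463 (SD, n = 3) in KO, or 58.5%. The 24 between Rian and Mirg gave 1.26 ± 0.244 (SD, n = 3) and 0.671 ± 0.505 (SD, n = 3), or 53.2%, and KO replicate 3, at 1.24, lay inside the WT range. The 14 within Mirg gave 1.76 ± 0.353 (SD, n = 3) and 1.27 ± 0.403 (SD, n = 3), or 72.6%.

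**Figure D3:**
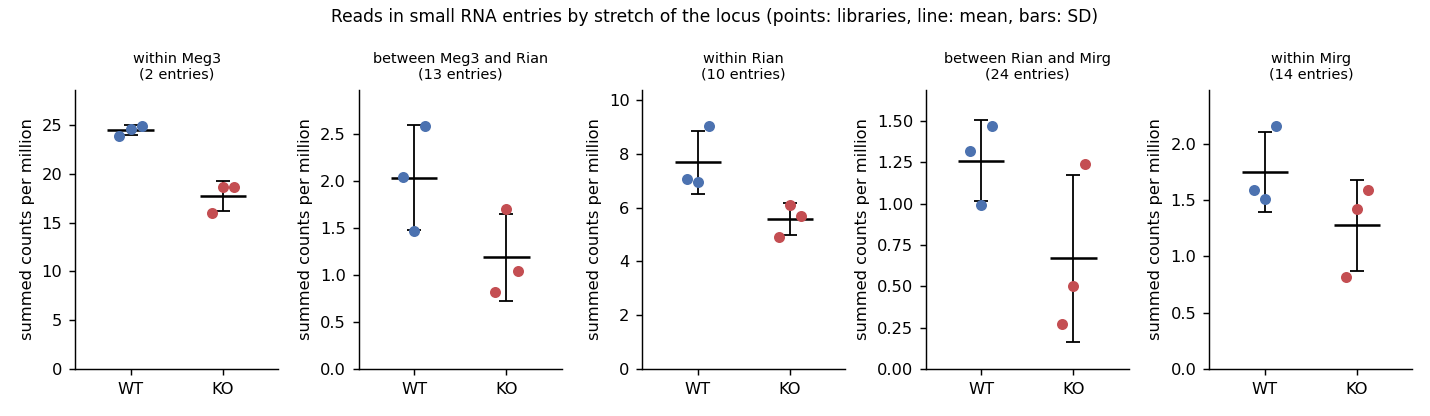
Summed CPM (vertical axes, each from 0) of the small RNA entries in 5 stretches of the locus, for 3 WT and 3 KO libraries. Points are libraries, lines are means and bars are SD. The groups are apart within Meg3 and within Rian and overlap in the other stretches.

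**Figure D4:**
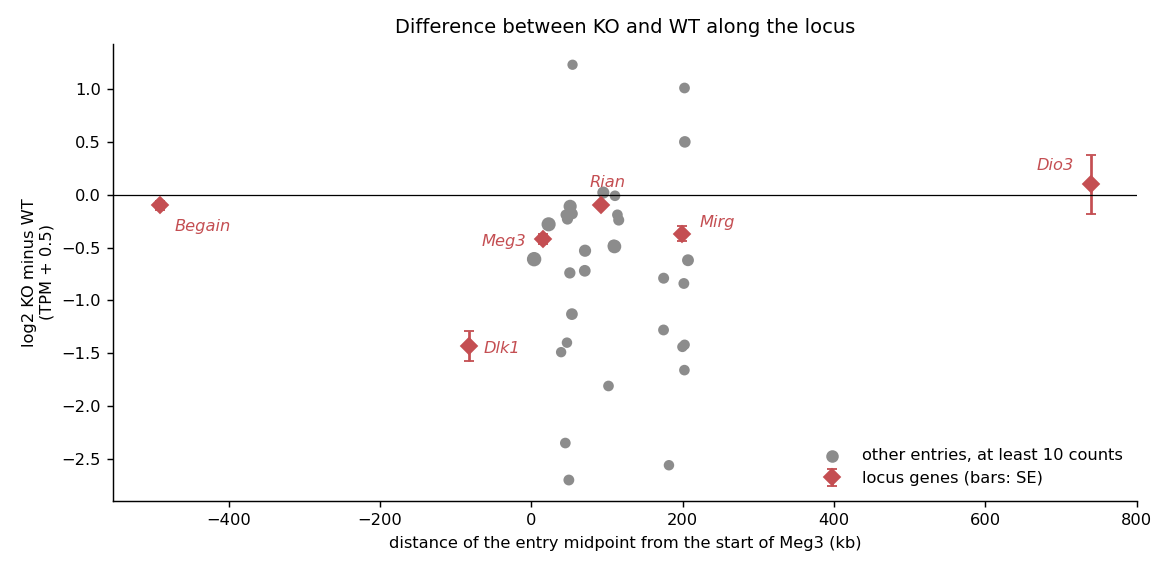
Log2 difference, KO minus WT, of TPM plus 0.5 (vertical axis) against the distance of each entry from the start of Meg3 in kb (horizontal axis). Diamonds are the 6 tested locus genes with SE bars, and grey dots are the other locus entries with at least 10 counts, larger for more counts. Most dots lie below 0, Dlk1 has the lowest diamond at -1.43 and Dio3 is near 0.

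Outside the domain, genes within 1 Mb on either side had a median log2 difference of 0.00. Of 27 tested, 2 fell and 0 rose (7.41%, where all tested entries gave 10.9%), and the groups were apart for 8 of the 27, beside 31.7% of all tested entries. Traf3, a signalling adaptor, was at 58.8 ± 1.2 TPM (SD, n = 3) in WT and 53.1 ± 0.637 TPM (SD, n = 3) in KO (limma Benjamini-Hochberg adjusted p = 0.023), and Eml1, a microtubule-binding protein, was at 90.9% of WT (adjusted p = 0.045 by limma). Traf3 lost its call when any 1 library but WT replicate 3 was left out (adjusted p up to 0.085), and Eml1 lost it without any 1 of the 6 (adjusted p 0.07 to 0.14).

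A list of 29 tested genes was drawn up as possible regulators of the locus. It includes Kdm6b and the enzymes of DNA and histone methylation. The list gave 1 rise and 3 falls (13.8%, beside 10.9% of all tested entries), with a median of -0.02. Of the falls, 1 is Kdm6b itself, which was fixed by the knockout, so the share is not read as an excess. After Kdm6b, the falls were Mef2c, a transcription factor of neurons, from 469 ± 6.51 to 419 ± 14.5 TPM (SD, n = 3 each; limma Benjamini-Hochberg adjusted p = 0.012), and the DNA methyltransferase Dnmt3a, to 91.3% of WT (adjusted p = 0.02 by limma). The other H3K27 demethylase gene, Kdm6a, rose to 116% of WT (log2 difference 0.21, limma Benjamini-Hochberg adjusted p = 0.033). Kdm6a is X-linked, and for it too the sex mix and the genotype cannot be told apart. The call of Dnmt3a ended when replicate 1 or 3 of WT, or replicate 2 or 3 of KO, was left out (adjusted p up to 0.076). That of Kdm6a ended when any 1 library but WT replicate 3 was left out (adjusted p up to 0.11).

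The Notch pathway, to which Dlk1 is related by its EGF-like repeats, had 36 tested genes. Of these 1 rose and 1 fell (5.56%, beside 10.9% of all tested entries), and the median was -0.01. Lfng, a glycosyltransferase that modifies Notch, fell from 22.2 ± 0.0657 to 18 ± 1.1 TPM (SD, n = 3 each; log2 difference -0.30, limma Benjamini-Hochberg adjusted p = 0.012). Nrarp, a feedback inhibitor of Notch signalling, rose from 31.4 ± 1.48 to 36.9 ± 2.2 TPM (SD, n = 3 each; limma Benjamini-Hochberg adjusted p = 0.035), a call that ended without any 1 of the 6 libraries (adjusted p 0.057 to 0.11).

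Genes of thyroid hormone handling, the pathway of Dio3, gave 3 rises and 5 falls among 27 tested (29.6%), where 10.9% of all tested entries were called, with a median of -0.04. This list was chosen with earlier results known, so the share is a description. Thrsp, a hormone-responsive gene of lipid synthesis, rose from 38.9 ± 3.07 to 68.6 ± 5.21 TPM (SD, n = 3 each; limma Benjamini-Hochberg adjusted p = 0.00058). Slco1a4, an organic anion transporter that also carries thyroid hormone, fell to 32.4% of WT (log2 difference -1.52 ± 0.14 SE, limma Benjamini-Hochberg adjusted p = 0.00091). Crym, which binds the hormone in the cytosol, fell to 66.6% (adjusted p = 0.0011 by limma), and Nrgn, a hormone-responsive postsynaptic protein, to 81.4% (adjusted p = 0.0014 by limma). All 4 calls held with any 1 library left out.

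The PSD-95 family and the postsynaptic partners of BEGAIN gave 8 falls and 0 rises among 15 tested genes (53.3%, where 6.74% of all tested entries were called lower), with a median of -0.13. The falls numbered 5 with no variance trend and 5 to 7 with 1 library left out, with 5 when replicate 1 or 2 of WT or replicate 2 of KO was missing. As the lists were chosen with earlier results known, these shares are descriptions. The NMDA receptor subunit gene Grin2a fell from 38.2 ± 0.727 to 30.5 ± 0.887 TPM (SD, n = 3 each; limma Benjamini-Hochberg adjusted p = 0.0021) and Grin1 fell to 88.1% of WT (adjusted p = 0.003 by limma), and the scaffold gene Shank2 fell to 85.8% (adjusted p = 0.0051 by limma). Begain itself stood at 93.5% of WT.

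Other genes of the retrotransposon-derived RTL and PNMA families, the relatives of Rtl1, gave 2 falls and 0 rises among 18 tested (11.1%, beside 10.9%), with a median of -0.01. Arc, an activity-regulated gene of synapses, fell from 6.96 ± 0.476 to 4.22 ± 0.355 TPM (SD, n = 3 each; log2 difference -0.66, limma Benjamini-Hochberg adjusted p = 0.0051). Pnma2 fell to 91.8% of WT (adjusted p = 0.02 by limma), a call that ended without any 1 library but WT replicate 3 (adjusted p up to 0.072).

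Imprinted genes of other regions gave 4 rises and 2 falls among 47 tested (12.8%, beside 10.9% of all tested entries), with a median of 0.02. Zdbf2 rose from 16.1 ± 0.503 to 20.4 ± 0.365 TPM (SD, n = 3 each; limma Benjamini-Hochberg adjusted p = 0.0044). Nnat, a small membrane protein of neurons, rose to 113% of WT (adjusted p = 0.008 by limma) and Inpp5f to 111% (adjusted p = 0.0083 by limma), while Herc3 fell to 84.6% (adjusted p = 0.0017 by limma). The calls of Nnat and Inpp5f ended with no variance trend.

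Cell type markers moved with the groups, and their part in the locus values was not tested. The general neuron markers were abundant in all libraries and summed to 6651 to 6679 TPM in WT against 6951 to 7042 TPM in KO, with 2 of 10 called higher and 1 lower. Markers of excitatory cortical neurons summed to 919 to 941 TPM in WT against 679 to 718 TPM in KO, with 3 of 7 lower and 0 higher. For GABAergic interneurons 5 of 7 were lower and 1 was higher, and the sums were 1156 to 1196 TPM and 873 to 942 TPM. Markers of astrocytes and radial glia gave 3 higher and 1 lower of 8 (4280.2 to 4439 TPM against 4840.0 to 5009.9 TPM). The higher ones were the abundant Fabp7, Aldoc and Slc1a3, which carried the rise of the sum. Sox9 overlapped. Gfap (75.6% of WT), Aldh1l1 (86.6%), Aqp4 (88.2%) and Gja1 (91.9%) had every KO library below every WT library, with Aldh1l1 alone called. Markers of the oligodendrocyte lineage gave 0 higher and 2 lower of 7 tested (651 to 689 TPM against 653 to 679.9 TPM).

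Markers of the remaining cell types were low, and some of them moved. Those of neurons of the ventral forebrain and diencephalon summed to 34 to 35 TPM in WT against 8.08 to 10.4 TPM in KO, with Slc17a6 and Tac2 lower. Slc17a6 carried most of that gap, with a mean of 23.3 TPM in WT and 3.71 TPM in KO. The other 3 tested were not called. Of these, Nkx2-1 (171% of WT) had every KO library above every WT library, and Th and Slc6a3 overlapped. Pmch and Otp were listed at 0 in every WT library. Meningeal fibroblast markers summed to 43.6 to 46.3 TPM in WT against 55.4 to 81.7 TPM in KO, with 3 of 8 higher (Lum, Col1a1 and Dcn) and 0 lower. Dcn lost its call when any 1 library but KO replicate 2 was left out (limma Benjamini-Hochberg adjusted p up to 0.11). Endothelial and pericyte markers summed to 18.1 to 19.6 TPM and 15.9 to 17.1 TPM, with Kdr lower of 4 tested. Microglia markers summed to at most 4.22 TPM, and the choroid plexus sums overlapped, at 18.2 to 35.1 TPM against 19.2 to 29.8 TPM, with 0 called in either list.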

How the data were processed

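The deposited table holds 1 value per gene and library in TPM, as each column sums to 1000000, although its name says FPKM and the design assumed that unit; the same test on a log scale was used. The submitters' processing notes name build mm10 and, with no roles, edgeR, featureCounts, TopHat, Picard 1.127, FastQC 0.11.2 and bcl2fastq 2.17. Annotation, strand setting and scaling: not given in the sources used here. TPM divides by a library-wide total, so a rise of a few abundant RNAs lowers all others.

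For each of the 19369 entries above 0 (100.0%) whole counts could be recovered, as the product of value and length falls on whole multiples of 1 step per library, within 1e-05 counts plus 1e-08 of the value. They are known up to a common factor per gene, so a multiple was taken where it came within 5% of a reference length. Another 671 entries were 0 throughout. Counts state depth and serve 1 alternative test. Count intervals and limits cover counting error only.

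Entries with a mean of at least 0.5 TPM (14983) were fitted with limma 3.58.1 in R 4.3.3 on log2 of TPM plus 0.5, without covariates and with variances that follow a mean trend, and p-values were Benjamini-Hochberg adjusted over all of them, with calls below 0.05. Fold changes on this scale understate changes of low genes. WT and KO groups come from the labels' genotype. On simulated data with 14857 genes tested, the fit recovered 12 of 50 changes of 1.2-fold, 38 of 50 of 1.5-fold, 43 of 50 of 2-fold and 44 of 50 of 4-fold. Of its 153 calls 16 were false (10.46%), a share above the threshold of 0.05. Positions come from RefSeq and GENCODE M21 on GRCm38, the build called mm10.

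The 7 genes, the gene lists and the marker lists were chosen with earlier results of these data known. Named genes are Kdm6b, the 7 genes, up to 4 called genes per list with the smallest p (2 values where none was called), locus entries with at least 10 counts, and the 5 genes most like Dlk1 and Meg3 by Pearson r among named autosomal genes of at least 1 TPM on average. Mir127, Dio3os, the locus entries given at 0 in a group and the markers given as listed at 0 fall outside this rule and were named after their values were seen. Some results this rule picks are not reported here. Alternatives were the pseudocount, the filter, median centring, quantile normalization, no variance trend, a replicate block, limma voom on the counts, and each library left out in turn.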

Additional observations from a re-analysis of the deposited data

How the results depend on the processing

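Every difference of the 6 tested locus genes except that of Dio3 kept its direction under all 15 alternatives. Leaving out 1 library each, the log2 differences ran from -0.13 to -0.07 for Begain, -1.51 to -1.33 for Dlk1, -0.46 to -0.36 for Meg3, -0.11 to -0.08 for Rian, -0.42 to -0.32 for Mirg and -0.05 to 0.36 for Dio3. Dlk1 gave -1.60 with a pseudocount of 0.1, -1.26 with 1 and -1.62 with limma voom, and Rian gave -0.07 with median centring. Calls over all entries numbered 1632 (622 higher, 1010 lower, 38.1% higher), and median centring gave 867 higher and 767 lower (53.1% higher) and quantile normalization 788 and 813 (49.2% higher). Without a variance trend there were 1064 (406 higher, 658 lower), with limma voom 2589 (1170 higher, 1419 lower), and with 1 library left out 892 to 1152 (355 to 454 higher, 531 to 698 lower). The replicate block gave 945 (360 higher, 585 lower); deviations of same-numbered libraries correlated at 0.008, -0.051 and 0.011, so the libraries share only a number. Called list members under the block were 0 for the flank, 2 for the locus regulators and 1 for RTL and PNMA genes. Without a trend they were 0 for the flank, 1 for Notch, 1 for the regulators, 5 for PSD-95 partners, 1 for RTL and PNMA genes and 3 for other imprinted genes. With voom they were 4 for the flank, 5 for Notch, 4 for RTL and PNMA genes and 11 for other imprinted genes, and with no filter 1 for the flank and 1 for Notch. With 1 library left out they were 5 to 10 for the other locus entries, 0 to 1 for the flank, 1 to 2 for Notch, 8 for thyroid hormone, 2 to 3 for the regulators, 5 to 7 for PSD-95 partners, 1 to 2 for RTL and PNMA genes and 4 to 5 for other imprinted genes. With 3 libraries per group, changes near 1.2-fold are mostly missed, and locus entries under 20 counts carry large counting error. Sex and genotype cannot be told apart.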
